A study of Rattus norvegicus with 6 samples.

Results

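The genes described here encode axon guidance ligands and receptors, and were followed in cultured Schwann cells, which ensheath axons in peripheral nerves, after stimulation with soluble Neuregulin1. They were chosen by symbol alone: ephrins A and B, Eph receptors A and B, semaphorins of classes 3 to 7, plexins A to D, neuropilins 1 and 2, netrins, the Unc5 family, Slits 1 to 3 and Robos 1 to 4. Of the 17327 genes in the count tables, 60 bore such a symbol. One of them, Unc5cl, shares the name of the Unc5 receptors without being a netrin receptor, and it had no count in any sample. Some members of these families had no entry, among them Plxna1, Plxnc1, Ephb4 and Sema6a, so the statements on families below do not cover them. The cells came from the sciatic nerves of adult female Wistar rats, grown as 3 independent preparations that are called cultures 1, 2 and 3 below. Each culture gave 1 mock sample, treated with the buffer of the ligand (PBS with bovine serum albumin), and 1 NRG1 sample, treated with 10 nM recombinant NRG1β1, both for 6 h. Both conditions shared starvation for 18 h and a medium with 2% serum and 10 μM forskolin, which raises intracellular cAMP. The cells had been expanded with NRG1 or glial growth factor before starvation and had no contact with axons.

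Guidance molecules tell a growing axon or a migrating cell where to go, and Schwann cells both send and read such signals. Ephrins are bound to the membrane, so they reach Eph receptor tyrosine kinases at sites of cell contact and can signal back into the cell that carries them. Secreted class 3 semaphorins bind neuropilins, which pass the signal on through plexins, while most membrane semaphorins bind plexins directly. Netrins act through DCC and the Unc5 receptors, and Slits repel cells and axons that carry Robo receptors. In an injured nerve, contact between Schwann cells and fibroblasts through ephrin-B and EphB2 is known to make Schwann cells sort into cords that guide regrowing axons.

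Between 6821590 and 15475018 reads per sample were counted on genes, and a level of 3 counts corresponded to between 0.194 and 0.444 CPM (the count scaled to the normalised library size). The Schwann cell markers were well represented, with Sox10 between 396 and 1258 CPM in the 6 samples. Culture 1 stood apart. Thy1 was counted at 1268 CPM in its mock and 1143 CPM in its NRG1 sample and had no count in the other 4 samples, and the same was true of Dcn with 611 and 427 CPM. Both are fibroblast markers. The summed level of the 8 fibroblast markers was 53432 and 57726 CPM in culture 1 and between 13696 and 22338 CPM in the others. In the others nearly all of this sum was Col1a1, at 13413 to 21494 CPM, and Lum, like Thy1 and Dcn, had no count. The sum of the 11 measured Schwann cell markers was 7254 and 5248 CPM in culture 1 against 13561 to 18774 CPM. By condition, the fibroblast sum ranged from 14071 to 53432 CPM in mock and from 13696 to 57726 CPM in NRG1 samples, with culture 1 the highest under both conditions. None of the 4 fibroblast markers that could be tested passed, but Col3a1 was close, at a log2 fold change of -0.98 (adjusted p = 0.0118, edgeR) with within-culture log2 ratios of 0.05, -1.59 and -1.38. It was thus lower with NRG1 in cultures 2 and 3 and not in culture 1, a pattern also seen for Nrp2 below, where its part was not tested. The Schwann cell sum ranged from 7254 to 18774 CPM in mock and from 5248 to 13699 CPM in NRG1 samples, and 6 of the 11 markers fell and 0 rose, so these markers moved with the treatment as well. Their part in the results below was not tested. The mural markers also went with culture 1, at 1920 and 1959 CPM against 3.48 to 9.32 CPM. The endothelial sum was 10.0 to 15.2 CPM in mock and 6.53 to 8.88 CPM in NRG1 samples, with Pecam1 and Cdh5 at 0. These groups did not overlap, as was so for 20.1% of all genes. Most of the sum was Tek, which did not pass (adjusted p = 0.0281, edgeR). The macrophage sum was 3.23 to 10.3 and 3.71 to 8.27 CPM, with Ptprc at 0. The perineurial sum was 117 to 197 and 108 to 130 CPM, with Lypd2 at 0, 1 marker risen and 1 fallen. The neuronal sum was 843 to 2331 and 816 to 2361 CPM, nearly all of it Nefm, with Rbfox3 at 0. In such bulk samples, fewer cells of a type and less RNA per cell cannot be told apart.

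NRG1 changed ephrins, Eph receptors, membrane semaphorins and Slits in both directions. It lowered the receptor Epha4, the ephrin Efna1, the membrane semaphorins Sema4f, Sema6c and Sema6d and the ligand Slit2, and it raised the receptor Epha2, the ephrin Efnb1, Sema7a and Slit3. No gene passed among the 7 plexins and neuropilins, 5 netrins and Unc5 genes, 2 Robo receptors and 5 secreted semaphorins tested, beside 11.8% of all genes. Each of these groups held few genes, and whether they differ from the others was not tested. Of the 60 genes, 41 had enough counts to be tested with edgeR's quasi-likelihood test, in which mock and NRG1 samples of a culture were paired. At an adjusted p of at most 0.01, 10 of the 41 changed, or 24.4%, beside 11.8% of all 9740 genes tested. Of the 41, 4 rose, beside 6.31% of all genes, and 6 fell, beside 5.51%. Past a 2-fold change, a limit applied after the test, 4 fell, beside 1.91% of all genes. With the limit inside the test 0 fell, and the share of all genes was not counted there. None rose past 2-fold, beside 1.56% of all genes, and this number was also 0 in edgeR at an unadjusted p under 0.05 and in DESeq2. At an adjusted p of at most 0.05, 16 of the 41 passed beside 23.2% of all genes. The median log2 fold change of the 41 was -0.11 beside -0.03 for all genes, and the median of its absolute value was 0.36 beside 0.24.

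**Figure D1:**
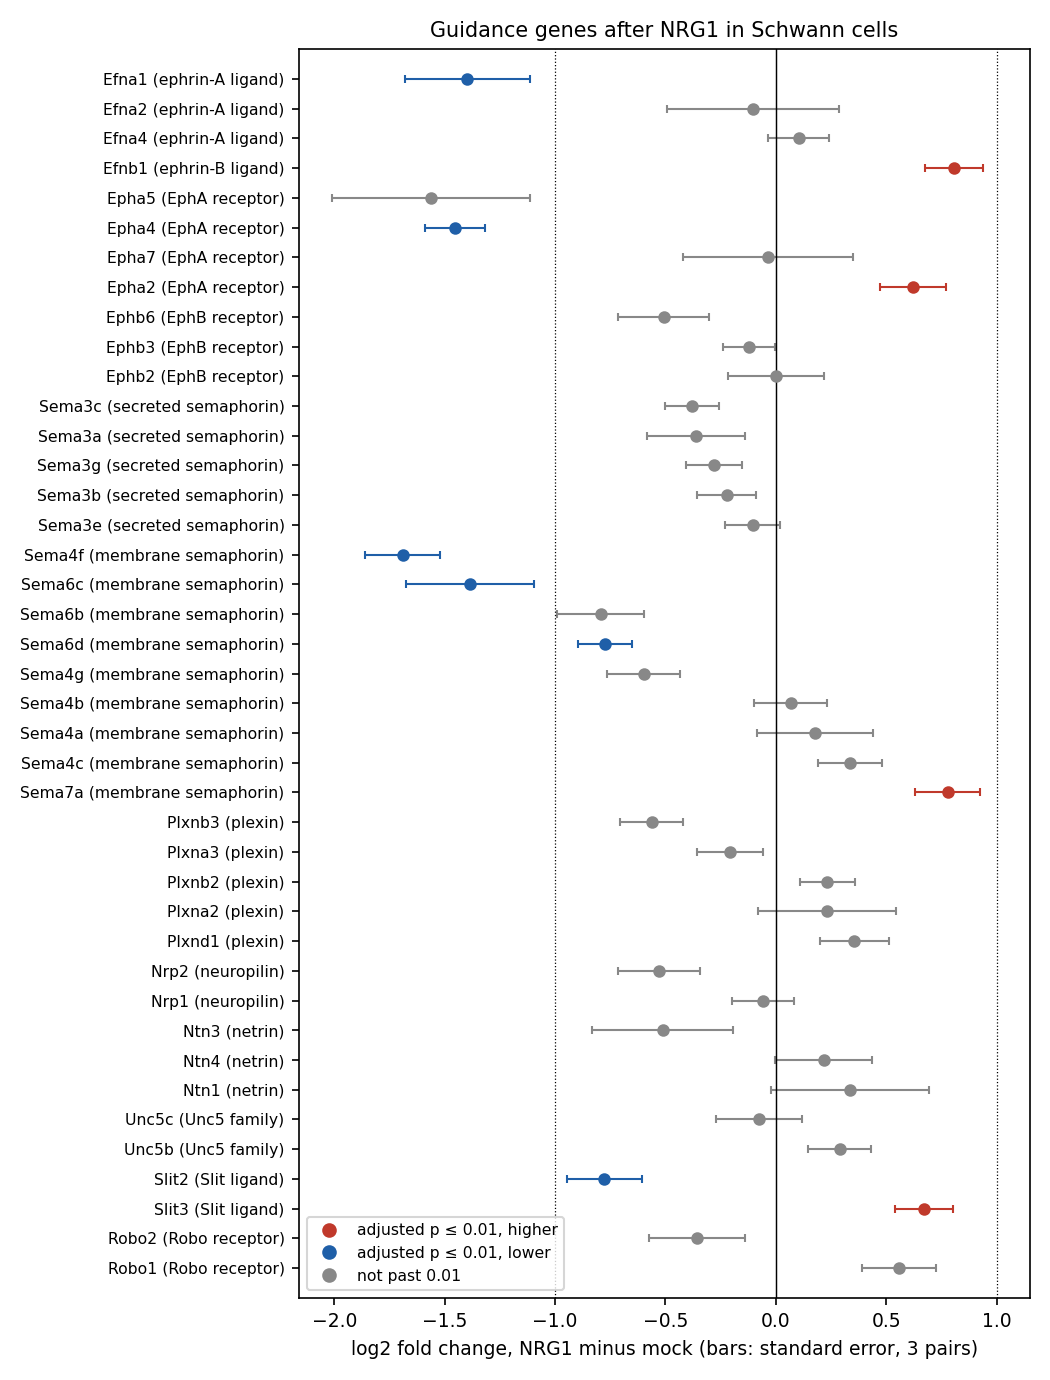
Log2 fold change of NRG1 over mock (x axis) for the 41 tested guidance genes, grouped by role; bars are standard errors from the paired fit over 3 cultures, dotted lines mark a 2-fold change, and colour marks an adjusted p of at most 0.01. The 6 genes that fell lie between -1.69 and -0.77 and the 4 that rose between 0.62 and 0.81.

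All 10 genes moved the same way in the 3 cultures. Without culture 1, all 10 passed again, with 4 guidance genes risen and 7 fallen of 42 tested, beside 12% of all genes, the seventh being Nrp2. That fit gave smaller p-values at larger standard errors. Sema4f had SE 0.22 and an adjusted p of 1.11e-11 there, against SE 0.17 and 1.68e-05 with all cultures (edgeR). P-values without culture 1, here and below, therefore cannot be set against those of the other fits. Without culture 2, Efna1, Epha2, Sema6c and Slit2 no longer passed while Robo1 and Sema4c did, and the share of all genes that passed was 8.86%. Without culture 3, Efna1, Epha2, Sema6c, Slit2 and Slit3 did not pass while Plxnb3 and Sema4g did, and the share of all genes was 6.51%. A fit that ignored the pairing called none of the 41, with adjusted p-values between 0.183 and 0.816 for the 10 genes and an unadjusted p under 0.05 for 6 of the 41. DESeq2 without the pairing also called none. The share of all genes that passed without the pairing was not counted, so it is not known whether these counts of 0 are particular to the guidance genes. In the unpaired edgeR fit the partner gene Dscaml1, described below, did not pass either, at a log2 fold change of 3.51 (adjusted p = 0.222). The groups themselves overlapped for most members: 4 of the 41 had all mock samples on one side of all NRG1 samples in CPM, beside 20.1% of all genes.

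**Figure D2:**
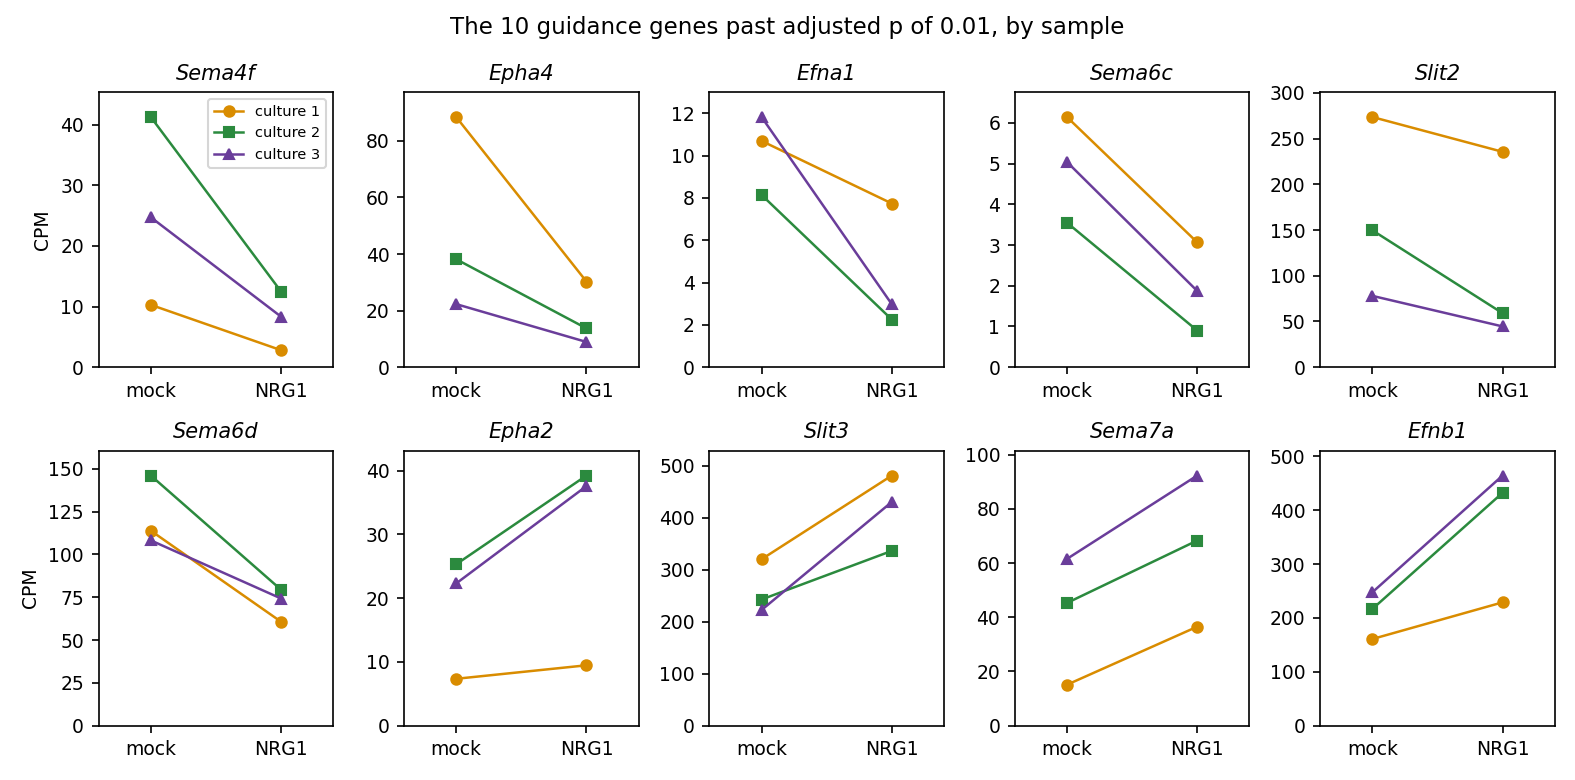
Level in CPM (y axis, from 0) of the 10 guidance genes past an adjusted p of 0.01 in the mock and NRG1 sample of each culture; each line joins the samples of 1 culture. All 3 lines slope the same way in every panel, while culture 1 often lies apart, as for Epha4, Epha2 and Slit2.

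The sequences upstream of 4 of these genes are shown because they belong to an ephrin and a receptor that moved in opposite directions (Efna1 and Epha2), and to the genes with the largest rise (Efnb1) and fall (Sema4f). They are RefSeq sequences of the rat GRCr8 assembly, 250 bases before to 50 after the gene start, at chr2:176986772-176987071 on the minus strand for Efna1, chr5:158888379-158888678 on the plus strand for Epha2, chrX:68297279-68297578 on the plus strand for Efnb1 and chr4:116995393-116995692 on the minus strand for Sema4f. Capitals mark matches, on either strand, to the cAMP response element TGACGTCA, its shorter form TGACG (which also lies within the whole element), the AP-1 motif TGANTCA, the ETS motif CCGGAAG or the FoxO motif GTAAACA.
Efna1: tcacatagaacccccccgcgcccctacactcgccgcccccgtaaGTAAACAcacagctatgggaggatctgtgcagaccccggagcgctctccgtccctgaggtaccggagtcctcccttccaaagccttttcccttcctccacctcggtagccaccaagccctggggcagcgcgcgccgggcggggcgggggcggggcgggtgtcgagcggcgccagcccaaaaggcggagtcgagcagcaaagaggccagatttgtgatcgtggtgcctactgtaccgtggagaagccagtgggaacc
Epha2: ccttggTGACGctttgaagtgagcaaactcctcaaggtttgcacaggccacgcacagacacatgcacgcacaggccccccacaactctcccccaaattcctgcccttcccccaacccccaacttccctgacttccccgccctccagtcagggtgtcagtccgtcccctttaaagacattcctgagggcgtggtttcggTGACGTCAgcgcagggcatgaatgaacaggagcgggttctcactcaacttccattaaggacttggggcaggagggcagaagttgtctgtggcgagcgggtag
Efnb1: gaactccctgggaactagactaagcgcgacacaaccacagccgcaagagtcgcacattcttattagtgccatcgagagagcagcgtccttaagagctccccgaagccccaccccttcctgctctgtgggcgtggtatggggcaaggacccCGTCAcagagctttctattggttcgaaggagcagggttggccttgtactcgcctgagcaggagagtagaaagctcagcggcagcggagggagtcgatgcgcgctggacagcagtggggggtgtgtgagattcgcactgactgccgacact
Sema4f: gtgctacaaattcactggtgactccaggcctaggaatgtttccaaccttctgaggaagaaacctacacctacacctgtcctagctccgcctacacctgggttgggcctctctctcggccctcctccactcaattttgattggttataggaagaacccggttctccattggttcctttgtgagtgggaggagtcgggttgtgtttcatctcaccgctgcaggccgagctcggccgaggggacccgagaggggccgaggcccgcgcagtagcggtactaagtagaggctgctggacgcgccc
Of the 60 genes, 47 had an entry in this table, among them 8 of the 10 that changed. Epha4 and Slit2 had none. The whole cAMP element was found in Epha2 alone of the 47, and in 1.83% of all 33469 promoters. The FoxO letters were found only in Efna1, and in 3.78% of all promoters. The shorter form was found in 9 of the 47 and in 21.2% of all, and it was present for each of the 4 genes that rose and for Sema6d. The AP-1 letters were in 1 of the 47 and 7.33% of all promoters, and the ETS letters in none of the 47 and 8.75% of all. Sema4f held none of these motifs. A match of letters is a description of the window and not a site of binding.

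Among ephrins and Eph receptors, 4 of the 11 genes tested passed, beside 11.8% of all genes. Epha4, a receptor for both ephrin-A and ephrin-B ligands, changed most clearly. It was counted at 88.5, 38.2 and 22.3 CPM in mock samples 1, 2 and 3, and at 30.3, 13.7 and 8.91 CPM in the NRG1 samples. Each NRG1 sample was thus well under the mock sample of its own culture, while NRG1 sample 1 was above mock sample 3. NRG1 changed it by -1.45 on the log2 scale (SE, the standard error of the fit, 0.14, adjusted p = 1.02e-05, edgeR), a 2.74-fold fall, with within-culture log2 ratios of -1.54, -1.46 and -1.30.

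The ligand Efna1 fell as well, from 10.7, 8.14 and 11.8 CPM in mock to 7.73, 2.25 and 2.97 CPM in NRG1 samples. All mock samples were above all NRG1 samples, although culture 1 fell less, with a log2 ratio of -0.46 against -1.77 and -1.92. The paired fit gave a log2 fold change of -1.40 (SE 0.28, adjusted p = 0.00294, edgeR). It was -1.93 (adjusted p = 2.69e-08) without culture 1, -1.25 (adjusted p = 0.0119) without culture 2 and -1.02 (adjusted p = 0.0469) without culture 3.

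Epha2, a receptor for which ephrin-A1 is a preferred ligand, moved the other way. Its levels were 7.35, 25.3 and 22.3 CPM in mock and 9.47, 39.2 and 37.6 CPM in NRG1 samples. Both samples of culture 1 were under the other 4, and within each culture the NRG1 sample was the higher one. The log2 fold change of 0.62 (SE 0.15, adjusted p = 0.00848, edgeR) was the smallest among the 10 genes, and did not pass in DESeq2 (adjusted p = 0.0362), in counts thinned to the smallest library (adjusted p = 0.0167), without culture 2 (adjusted p = 0.0215) or without culture 3 (adjusted p = 0.128).

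Efnb1, a transmembrane ephrin that binds mainly EphB receptors, was counted at 161, 217 and 248 CPM in mock and at 229, 433 and 465 CPM in NRG1 samples. The rise was smaller in culture 1, whose NRG1 sample stayed under mock sample 3. This amounted to a log2 fold change of 0.81 (SE 0.13, adjusted p = 0.000605, edgeR), or 1.75-fold.

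The EphB receptors were not among the genes that passed. The mean level of Ephb3 was 121 ± 38.2 CPM (SD, n = 3) in mock and 111 ± 30.2 CPM with NRG1, and Ephb2 at 7.36 ± 2.67 and 7.30 ± 2.97 CPM. Their log2 fold changes were -0.12 (SE 0.12) and 0.00 (SE 0.22). Ephb6, a receptor whose kinase domain is inactive, had -0.51 (SE 0.21, adjusted p = 0.0914, edgeR). None of the 3 passed in edgeR, beside 11.8% of all genes, or in DESeq2, and 1 had an unadjusted p under 0.05. Of the remaining members of these families, Epha5 had few counts, 4, 23 and 22 in mock and 0, 11 and 10 in NRG1 samples, and its log2 fold change of -1.56 (SE 0.45, adjusted p = 0.0216, edgeR) did not pass. Epha7, Efna2 and Efna4 had log2 fold changes between -0.10 and 0.10.

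Of the membrane semaphorins, 4 of 9 passed in edgeR, beside 11.8% of all genes, and 3 of 9 in DESeq2. None of the 5 tested secreted ones passed in either, and 2 of them had an unadjusted p under 0.05. Whether the 2 kinds differ was not tested. Sema4f, a transmembrane semaphorin known from the contact between Schwann cells and axons, had the largest fall of all guidance genes that passed. It was counted at 10.3, 41.3 and 24.7 CPM in mock and at 2.80, 12.5 and 8.33 CPM in NRG1 samples. NRG1 lowered it by nearly the same ratio in each culture, although the mock level in culture 1 was under that of NRG1 sample 2. Within cultures the log2 ratios were -1.80, -1.71 and -1.55, and the fit gave -1.69 (SE 0.17, adjusted p = 1.68e-05, edgeR), a 3.23-fold fall.

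Sema6d and Sema6c, class 6 transmembrane semaphorins, fell too. Sema6d was counted at 114, 146 and 108 CPM in mock and at 60.7, 79.3 and 74.2 CPM in NRG1 samples, and these groups did not overlap. In the fit it fell by 0.77 on the log2 scale (SE 0.12, adjusted p = 0.000536, edgeR). Sema6c was a gene of low counts, with 46, 24 and 64 in mock and 23, 8 and 29 in NRG1 samples, or 6.15, 3.55 and 5.04 against 3.07, 0.899 and 1.87 CPM. Here too every mock sample was above every NRG1 sample. The log2 fold change of -1.38 (SE 0.29, adjusted p = 0.00364, edgeR) did not pass in DESeq2 (adjusted p = 0.0354), in counts thinned to the smallest library (adjusted p = 0.0185), without culture 2 (adjusted p = 0.0134) or without culture 3 (adjusted p = 0.0338).

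Sema7a, a semaphorin anchored by a lipid that binds plexin C1 and integrins, rose from 15.1, 45.3 and 61.5 CPM to 36.5, 68.3 and 92.3 CPM. Both samples of culture 1 were under the other 4. On the log2 scale the rise was 0.78 (SE 0.15, adjusted p = 0.0019, edgeR), with the largest ratio, 1.26 on the log2 scale, in culture 1 and 0.59 and 0.58 in the others. It was 0.59 (adjusted p = 0.00991) without culture 1.

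Other membrane semaphorins did not pass. Sema6b came next, with a log2 fold change of -0.79 (SE 0.20, adjusted p = 0.0102, edgeR) and levels under those of its mock sample in every culture, and passed with RLE normalisation (adjusted p = 0.00971), followed by Sema4g with -0.60 (SE 0.17, adjusted p = 0.018). Sema4a, Sema4b and Sema4c had log2 fold changes between 0.07 and 0.34. The secreted class held the gene with the most counts of the whole set, Sema3b, at 1382, 2852 and 3067 CPM in mock and 1271, 2308 and 2592 CPM in NRG1 samples. The fitted log2 difference was -0.22 (SE 0.13, adjusted p = 0.249). Sema3c had -0.38 (SE 0.12, adjusted p = 0.0373), Sema3a, a repellent of sensory and motor axons, -0.36 (SE 0.22, adjusted p = 0.26), and Sema3g and Sema3e -0.28 and -0.11. The 5 fitted values of this class were thus all below 0, and none passed.

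The receptors of semaphorins, 5 plexins and 2 neuropilins, gave no gene past the threshold in edgeR, beside 11.8% of all genes. An unadjusted p under 0.05 was found for 3 of the 7, and DESeq2 made 1 call, Plxnb3. Plxnb3 was counted at 294, 495 and 419 CPM in mock and 193, 266 and 368 CPM in NRG1 samples. It was lower in every NRG1 sample than in the mock sample of its culture. In the fit it changed by -0.56 on the log2 scale (SE 0.14) with an adjusted p of 0.0105 in edgeR, just outside the threshold, and of 0.00383 in DESeq2. Plxnb2 averaged 303 ± 11.2 CPM in mock and 358 ± 53.1 CPM with NRG1 (SD, n = 3), with a fitted log2 difference of 0.23 (SE 0.12), and Plxnd1, Plxna2 and Plxna3 had 0.36, 0.23 and -0.21.

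Nrp1, the co-receptor of Sema3a, averaged 95.0 ± 31.3 CPM in mock and 88.4 ± 11.5 CPM with NRG1 (SD, n = 3), a fitted log2 difference of -0.06 (SE 0.14). Nrp2 behaved differently between cultures. It was counted at 213, 40.0 and 24 CPM in mock and at 217, 16.6 and 16.4 CPM in NRG1 samples, so that culture 1 held both the highest levels and no decrease, with a log2 ratio of 0.03 against -1.25 and -0.55. Over all cultures the log2 fold change was -0.53 (SE 0.19, adjusted p = 0.0518, edgeR). Without culture 1 it was -0.89 (SE 0.21, adjusted p = 0.000382).

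The pair of Slits that was expressed moved in opposite directions. Slit3 rose from 320, 243 and 222 CPM in mock to 481, 336 and 430 CPM in NRG1 samples, and the groups did not overlap. In the paired fit this was a log2 fold change of 0.67 (SE 0.13, adjusted p = 0.00217, edgeR), and 0.55 (adjusted p = 0.0437) without culture 3. Slit2 fell from 274, 150 and 78.0 CPM to 236, 59.0 and 44.5 CPM, fitted as -0.78 on the log2 scale (SE 0.17, adjusted p = 0.00471, edgeR). Both samples of culture 1 were above the other 4, and the log2 ratio there was -0.22 against -1.34 and -0.81. The value was -1.07 (adjusted p = 1.77e-07) without culture 1, -0.50 (adjusted p = 0.0259) without culture 2 and -0.74 (adjusted p = 0.0137) without culture 3. Slit1 had no count.

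Robo receptors, which bind Slits, did not pass in edgeR, beside 11.8% of all genes, or in DESeq2. Of the 2 tested, 1 had an unadjusted p under 0.05. Robo1 was at 20.4, 25.9 and 15.0 CPM in mock and 38.5, 26.9 and 24.3 CPM in NRG1 samples, higher than mock in every culture but hardly so in culture 2, whose log2 ratio was 0.05. The fit gave a log2 difference of 0.56 (SE 0.17, adjusted p = 0.0269, edgeR) and 0.81 (adjusted p = 0.00211) without culture 2. Robo2 had -0.36 (SE 0.22, adjusted p = 0.26).

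Netrins and the Unc5 family had no gene past the threshold in edgeR among 5 tested, beside 11.8% of all genes. None passed in DESeq2 or had an unadjusted p under 0.05. Unc5b averaged 38.1 ± 30.6 CPM in mock and 47.6 ± 40.0 CPM with NRG1 (SD, n = 3), a fitted log2 difference of 0.29 (SE 0.14), and Unc5c had -0.08 (SE 0.19). Ntn1, the classical netrin, was counted only 21, 8 and 11 times in mock and 34, 11 and 13 times in NRG1 samples, at a log2 fold change of 0.33 (SE 0.36). Ntn4 and Ntn3 had 0.22 (SE 0.22) and -0.51 (SE 0.32).

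Culture 1 differed from cultures 2 and 3 by more than NRG1 samples differed from mock for most guidance genes. The log2 difference between culture 1 and the mean of cultures 2 and 3 was larger in size than the log2 fold change of NRG1 for 30 of the 41 genes, or 73.2%, beside 60.1% of all genes tested. These values compare 1 culture with 2 and are given without a test. In 9 of the 41 genes both samples of culture 1 were above the other 4, beside 21% of all genes, and in 12 both were below, beside 20.3%. The genes above were Unc5c, Ntn4, Nrp2, Robo2, Unc5b, Slit2, Plxna2, Ntn1 and Sema4a. Unc5c was at 81.0 and 71.2 CPM in culture 1 and between 1.04 and 1.58 CPM elsewhere, and Ntn4 at 44.8 and 41.3 CPM against 1.18 to 3.87 CPM. Robo2 was at 53.7 and 42.3 CPM against 4.49 to 12.7 CPM. The genes below included Sema3g, with 117 and 111 CPM in culture 1 against 499 to 710 CPM elsewhere, Sema3b, Sema3a, Sema7a and Epha2. Ephb2 and Ephb3, of the EphB family, were also in this group. The fibroblast markers Thy1, Dcn, Lum, Pdgfra, Col3a1 and Col1a1 were also higher in both samples of culture 1 than in the other 4, while Fbln1 was not. Col1a2 had 2 counts in total and could not be compared. The summed Schwann cell markers were lower in culture 1. The part of these markers in the levels was not tested.

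**Figure D3:**
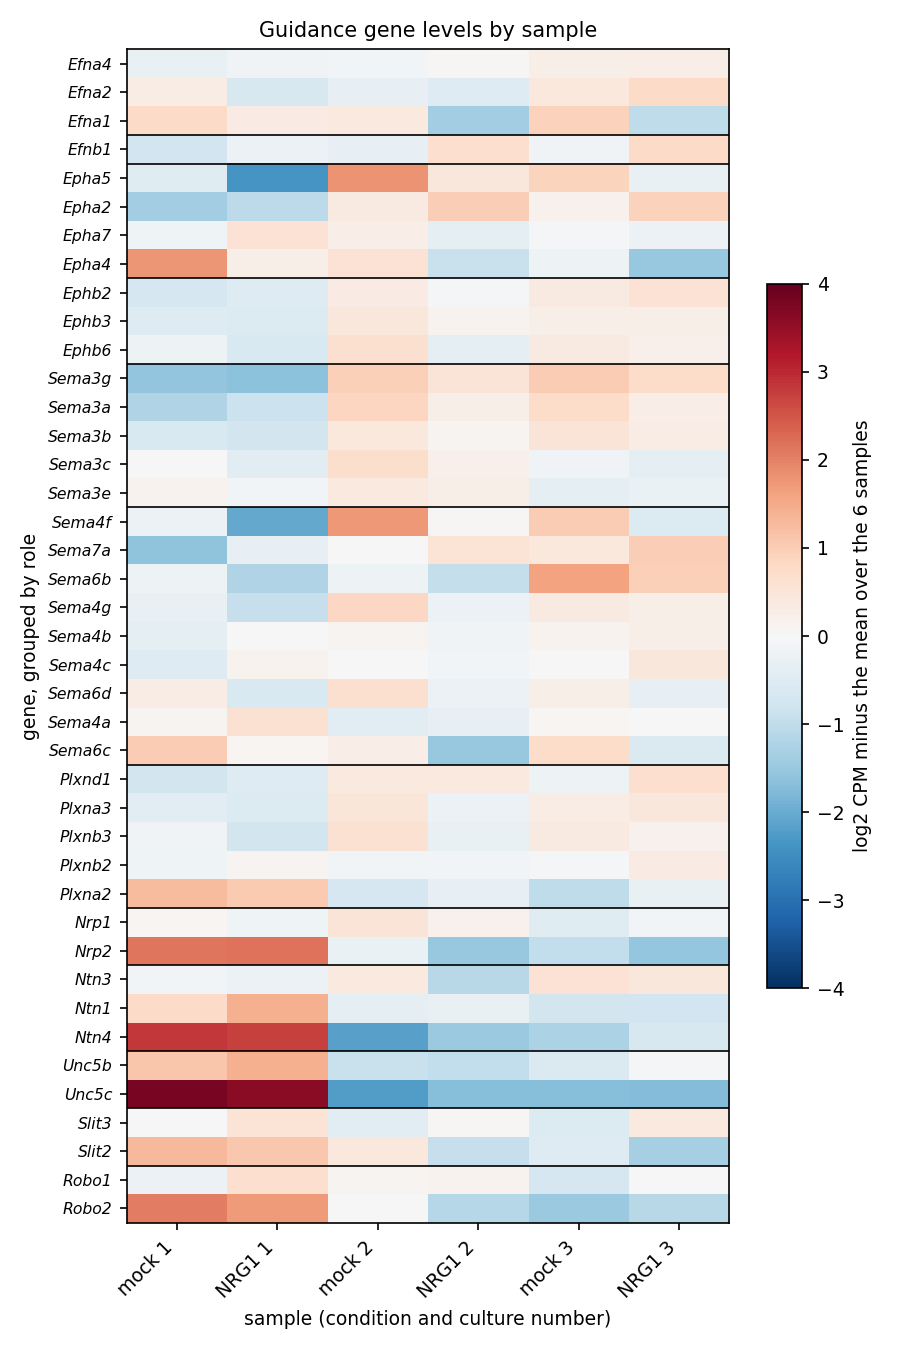
Level of the 41 tested guidance genes (rows, grouped by role) in the 6 samples (columns, mock beside NRG1 of each culture), as log2 CPM minus the mean of the 6 samples of that gene. The columns of culture 1 stand out for Unc5c, Ntn4, Nrp2 and Robo2 (high) and for Sema3g (low), while mock and NRG1 columns of a culture differ visibly for Epha4, Sema4f and Efna1.

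**Figure D4:**
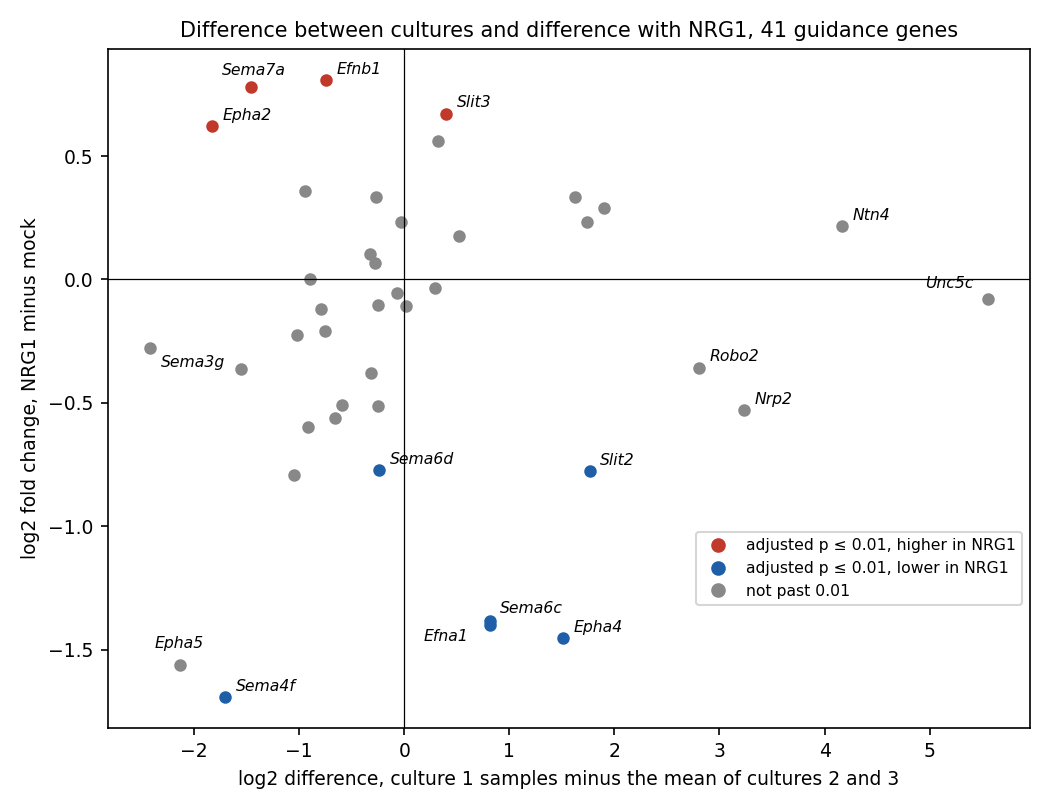
For each of the 41 tested guidance genes, the log2 difference between the 2 samples of culture 1 and the mean of the 4 others (x axis) against the log2 fold change of NRG1 over mock (y axis); colour marks an adjusted p of at most 0.01 for NRG1. Genes far to the right, such as Unc5c and Ntn4, lie near 0 on the y axis, and the 10 coloured genes lie on both sides of 0 on the x axis.

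The 19 genes not tested had too few counts in too many samples to pass the filter. Ephb1, Robo3, Robo4, Slit1 and Unc5cl had no count in any sample, which at this depth allows up to 0.194 to 0.444 CPM per sample for counting error alone. A further 10, namely Efna5, Efnb3, Epha1, Epha3, Epha10, Ntn5, Sema5a, Sema5b, Unc5a and Unc5d, never reached 10 counts. Efnb2, Sema3d, Sema3f and Sema4d reached 10 counts in some samples. The first 3 of them were again genes of culture 1. Efnb2, a transmembrane ephrin, had 102, 6 and 2 counts in mock and 132, 3 and 15 in NRG1 samples, Sema3d had 88, 3 and 1 against 45, 0 and 1, and Sema3f 51, 5 and 12 against 57, 1 and 2. Sema4d had 1, 7 and 14 against 0, 7 and 11.

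Beside the guidance genes themselves, a list of 85 co-receptors, other guidance ligands and signalling partners was followed, of which 79 were found by symbol and 64 could be tested. Of these 64, 8 rose and 6 fell, beside 6.31% and 5.51% of all genes, and the median log2 fold change was -0.02 beside -0.03 for all genes. Among co-receptors and surface proteins, Nrcam, an adhesion molecule that joins neuropilin complexes, rose from 42.6 ± 22.4 CPM (SD, n = 3) to 82.4 ± 42.0 CPM, with a log2 fold change of 0.96 (SE 0.12, adjusted p = 9.24e-05, edgeR). Dscaml1, an adhesion molecule related to the netrin receptor DSCAM, had 3.55 (SE 0.24, adjusted p = 6.74e-07). Its counts were low in mock, at 2, 21 and 70 against 78, 418 and 724 in NRG1 samples, and under the level of 3 counts in mock sample 1. The heparan sulphate proteoglycans Sdc1 and Gpc1 had fitted values of 1.62 (adjusted p = 0.000306, SE 0.24) and 0.73 (adjusted p = 0.00183, SE 0.14), and the call of Sdc1 was not made in DESeq2 (adjusted p = 0.0107). Lingo1, a part of the Nogo receptor complex, fell by 1.96 on the log2 scale (SE 0.30, adjusted p = 0.000368), and Ntng2, a membrane-anchored relative of the netrins, by 0.62 (SE 0.12, adjusted p = 0.00235). Lingo1 had few counts, 62, 24 and 64 in mock and 17, 5 and 23 in NRG1 samples.

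Of the partners inside the cell, Farp2, an exchange factor that acts below plexin A receptors, fell from 127 ± 12.2 CPM (SD, n = 3) to 55.4 ± 9.65 CPM, with a log2 fold change of -1.20 (SE 0.12, adjusted p = 1.52e-05, edgeR). Rnd2 had -0.69 (SE 0.13, adjusted p = 0.00186). Mical1, an enzyme that oxidises actin below plexins, and Dock1, an activator of Rac, rose by 0.66 (adjusted p = 0.00134, SE 0.12) and 0.68 (adjusted p = 0.00107, SE 0.12). Without culture 3, Mical1 (adjusted p = 0.0121), Dock1 (adjusted p = 0.0122) and Rnd2 (adjusted p = 0.0355) no longer passed, and Gpc1 did not without culture 1 (adjusted p = 0.0102). The others that passed were Mical2 and Limk1, which rose, and Chn2 and Srgap3, which fell. Dcc, the main attractive netrin receptor, was counted once in mock sample 2 and once in NRG1 sample 1 and could not be tested.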

How the data were processed

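Poly(A) RNA of 6 samples, 3 mock and 3 NRG1, was read on an Illumina NextSeq 500. TopHat 2.0.10 had been used by the authors for mapping to rn5, and htseq for assigning reads to RefSeq genes; the deposited values are raw counts. Strand settings and the htseq version are not given in the sources used here, so reads of overlapping antisense genes cannot be told apart. Alignments outside genes or not unique, 50.1% to 53.0% of each file, were left out. Groups and culture numbers came from the sample titles.

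Counts were analysed with edgeR 4.0.16 in R 4.3.3: filterByExpr with a minimum count of 10, TMM normalisation, a quasi-likelihood fit with the culture as a block, and Benjamini-Hochberg adjustment over the 9740 genes tested. The limit for a change was an adjusted p of 0.01. The 2-fold limit was applied after the test. Standard errors are the log2 fold change over the square root of F. CPM used TMM library sizes, and within-culture ratios log2 CPM with a prior count of 2. The pairing comes from the independent experiments of the study. Deviations of same-numbered samples from their group means correlated across genes with r of 0.91, 0.67 and 0.81. Samples of different numbers gave 0.51 between cultures 2 and 3 in either order, and -0.80 to -0.71 where culture 1 was in the pair. The matched values of cultures 2 and 3 were thus only somewhat above their mismatched ones. Deviations from a mean of 3 samples sum to 0, which by itself pushes mismatched values down, so their negative sign says nothing about the pairing. No 2 samples agreed within sampling noise. Alternatives used DESeq2 1.42.0, other normalisation, filters and thresholds, thinned counts, no block and each culture left out. Scripts were tested on simulated counts. Gene lengths were not used, so levels were not compared between genes.

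Named were all guidance genes past 0.01, those with most counts or the largest change in each role, those under the filter, and the partner genes past 0.01 (statistics for the 10 of smallest p). The remaining guidance genes were named beyond that rule, after their values were seen. Members, partner list and marker lists (Schwann cell, fibroblast, perineurial, endothelial, macrophage, mural, neuron) were chosen with earlier results of these data known.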

Additional observations from a re-analysis of the deposited data

How the results depend on the processing

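No guidance gene that passed changed direction under any alternative run. The fit with no replicate block, which drops the pairing, gave 0 guidance genes risen, 0 fallen and 0 down over 2-fold, and 0 partner genes risen and 0 fallen. DESeq2 with no replicate block, chosen after seeing the data, also gave 0, 0 and 0 guidance genes, and 2 partner genes risen and 1 fallen. The share of all genes that passed was not counted for either fit. Placing the 2-fold limit inside the test gave 0 guidance genes down past the adjusted p, while 5 tested guidance genes had an unadjusted p under 0.05 there. The share of all genes that passed was not counted for this setting. An adjusted p of 0.05 gave 11 guidance genes fallen, 15 partner genes risen and 10 fallen, and no low-count filter gave 10 guidance genes fallen. With each culture left out in turn, guidance genes risen ranged from 2 to 5, those fallen from 3 to 7 and those down over 2-fold from 2 to 5, while partner genes risen ranged from 4 to 8 and fallen from 3 to 9. The counts without culture 1 rest on p-values that, as stated above, cannot be set against those of the other fits. RLE normalisation, the stricter filter, robust fitting, thinned counts and DESeq2 with the block kept every one of these numbers within 1.5 times. Robust fitting moved Slit2 to an adjusted p of 0.0109 and Sdc1 to 0.0577. Of the 31 tested guidance genes that did not pass, 9 changed sign under at least 1 alternative and 8 passed under at least 1. With 3 cultures and few counts, the difference of Ntn1 was no larger than its standard error, and a p that misses the threshold does not show a constant level. The cause of the differences between alternatives was not tested.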
